A study of Mus musculus with 7 samples.

Results

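Fgf23 and 3 enzymes that act on its protein product, Galnt3, Furin and Fam20c, were followed in mouse spleen after lipopolysaccharide (LPS). The 4 genes were picked by symbol with their values in these libraries known, so their levels and differences are given as a description. Calls from a fit across all genes are printed for them beside the share of all genes called, and support nothing. All 4 were found among the 17920 genes of the deposited table, and all 4 passed the filter on low values (a mean of at least 1 FPKM over the libraries). FPKM is the fragment number scaled to transcript length and library size. Mice labelled C57BL/6, 8 weeks old, received 20 mg/kg LPS intraperitoneally, and the spleen was collected 90 min or 6 h later. Wild-type mice gave 2 libraries at each time. Mice lacking GdX (UBL4A, a ubiquitin-like protein of the chaperone route for tail-anchored membrane proteins, encoded on the X chromosome) gave 2 libraries at 90 min and 1 at 6 h. The genotype is written GdX-/- in the sample labels and GdX-/Y in the treatment text. All groups received LPS, and a resting spleen was not analysed here. The knockout is of the whole animal, and whole spleen was used, with all its cell types.

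FGF23 is a hormone, made mainly by osteocytes in bone, that lowers blood phosphate and active vitamin D by acting on the kidney through FGF receptors and the co-receptor klotho. Its activity is set after translation. GALNT3 attaches O-linked sugar near the cleavage site and protects the intact hormone, FAM20C phosphorylates the protein next to that site and hinders the sugar, and furin, a proprotein convertase, cuts the unprotected protein into inactive fragments. Inflammation, iron deficiency and erythropoietin are known to raise Fgf23 transcription, also outside bone.

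In the annotation of GRCm38.p6, Fgf23 (Entrez gene 64654) spans chromosome 6 from 127072902 to 127082296, Galnt3 (14425) chromosome 2 from 66082766 to 66125056, Furin (18550) chromosome 7 from 80389194 to 80405441 and Fam20c (80752) chromosome 5 from 138755081 to 138810063. The promoter of Fgf23 is shown because this gene had the widest range of the 4. It is the 250 bases before the start site in RefSeq, chr6:127072652-127072901 of GRCm38.p6, plus strand. Capitals mark, in order, AGATAA, known from GATA factors, TTCNNNGAA, known from STAT factors, and TTTAAA, which resembles a TATA box.

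Fgf23: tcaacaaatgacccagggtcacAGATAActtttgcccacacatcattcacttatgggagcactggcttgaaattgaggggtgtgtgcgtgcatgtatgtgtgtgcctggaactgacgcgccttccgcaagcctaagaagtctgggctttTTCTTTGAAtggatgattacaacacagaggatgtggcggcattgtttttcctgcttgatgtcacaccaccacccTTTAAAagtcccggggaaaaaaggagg

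Both strands were searched. The STAT motif was found in 7.02%, AGATAA in 9.99% and TTTAAA in 12.1% of 32851 promoter windows of this length. The motifs were chosen after the sequence had been read. No match was found in this window for the standard NF-kB consensus (present in 3.9% of windows), TGANTCA (AP-1, 6.75%), TGACGTCA (CRE, 1.55%), ACGTG (hypoxia response, 16.6%) or TATAAA (12.4%). Of the other 3 genes, Furin alone had a match to any of these motifs, TATAAA in 1 of its 2 listed promoters.

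The libraries were of similar estimated depth, 19300000 to 21000000 fragments. Globin genes took 7.7% to 30.9% of the FPKM sum. Ubl4a itself lay at 4.03 to 10.6 FPKM in GdX-deficient and 5.62 to 14.0 FPKM in wild-type libraries and overlapped between genotypes at 90 min, while at 6 h the GdX-deficient 10.56 FPKM lay below the wild-type 11.88 and 14.01 FPKM. By contrast, Gm44504, an entry that overlaps it in the RefSeq annotation, lay at 0.66 to 1.86 against 14.5 to 51.1 FPKM. Markers of B cells, T cells, macrophages and red cell precursors were present in every library. The difference between the replicates of a group also moved with transcript length. Over 11180 genes its Spearman's rho with length was 0.434 in the wild-type pair at 90 min, 0.581 in the wild-type pair at 6 h and 0.169 in the GdX-deficient pair.

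**Figure D1:**
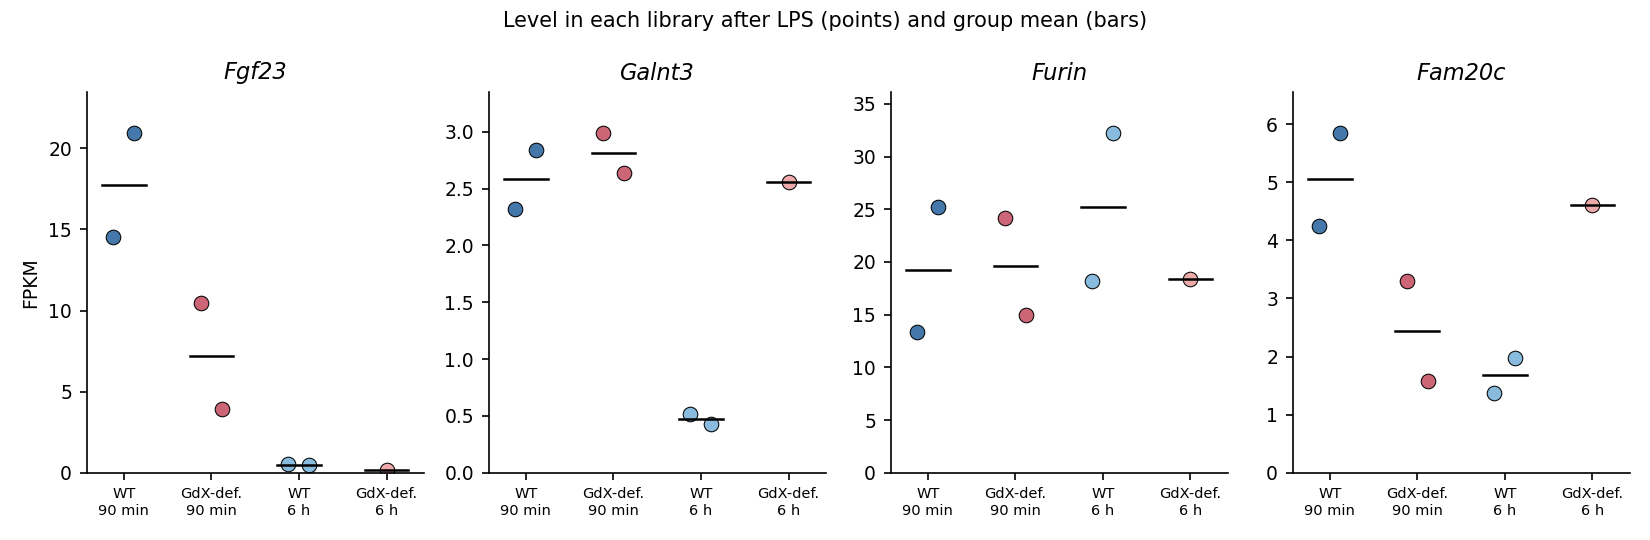
Level of each gene in FPKM (vertical axes, each from 0) in the 7 libraries (points) by genotype and time, with group means as bars. Fgf23 is high at 90 min and under 1 FPKM at 6 h, Galnt3 is low only in wild type at 6 h, Furin overlaps in each of the 4 comparisons, and Fam20c is lower at 6 h in wild type but not in the GdX-deficient library.

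Fgf23 was high at 90 min and nearly gone at 6 h in both genotypes. The wild-type libraries held 14.54 and 20.96 FPKM at the early time, then 0.51 and 0.45 FPKM. The GdX-deficient libraries held 10.48 and 3.95 FPKM at the early time, then 0.15 FPKM. Every 90 min library lay above every 6 h library. The group means were 17.75 ± 4.54 and 0.48 ± 0.0424 FPKM in wild type (SD, n = 2 each), a 37.0-fold fall, and 7.22 ± 4.62 (SD, n = 2) and 0.15 FPKM in GdX-deficient spleen, a 48.1-fold difference (26.3-fold without replicate 1 and 69.9-fold without replicate 2 at 90 min). On the log2(FPKM + 1) scale, which understates changes of low genes, the differences were -3.64 (SE 0.40) and -2.71. Only 2 of the 11378 tested genes fell further in wild type, and 6 in GdX-deficient spleen.

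At 90 min both GdX-deficient libraries lay below both wild-type libraries for Fgf23. The means differed 2.46-fold, by -1.29 on the log2 scale (SE 0.40). The GdX-deficient libraries themselves differed more than the wild-type ones, and leaving out the lower of them (replicate 2) brought the difference to -0.69, while leaving out replicate 1 brought it to -1.90. That lower library also had the highest summed level of 7 neutrophil markers, 4241 FPKM against 1027 in its replicate and 741.3 to 2390 in the other 5 libraries. Stromal, macrophage, dendritic cell and bone cell (osteoblast and osteocyte) marker sums were, like Fgf23, lower in both GdX-deficient libraries than in both wild-type libraries at 90 min. In each, replicate 2 was the lowest at that time. In wild type against GdX-deficient spleen they were 58.06 to 101.1 against 22.96 to 26.1 FPKM for stromal and 606 to 632.4 against 458.7 to 528.5 FPKM for macrophage markers. They were 81.47 to 87.08 against 58.59 to 72.96 FPKM for 6 dendritic cell markers and 8.43 to 11.72 against 5.92 to 7.79 FPKM for bone cell markers. The erythroid sum went the other way, 585.1 to 661.8 against 1077 to 1280 FPKM. The part of these shifts in the Fgf23 values was not tested. At 6 h the GdX-deficient library was again the lowest, but it rested on about 5 fragments, against 19 and 17 in wild type. The exact Poisson 95% intervals, which cover counting error only, were 0.0451 to 0.324 FPKM against 0.304 to 0.788 and 0.267 to 0.733 FPKM and overlapped. With a pseudocount of 0.1 in place of 1 the difference was -1.21 and met the rule for a counted gene, as did 29.7% of all genes at that setting (6.35% lower), which it did not with 1 (-0.36). With 1 GdX-deficient library no test of genotype was made at 6 h.

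Among the FGF ligands listed with it, 13 genes in all, Fgf23 had the highest FPKM in each of the 4 libraries at 90 min. The next was Fgf1, a locally acting growth factor, at 1.66 to 3.29 FPKM. At 6 h Fgf1, at 0.59 to 1.70 FPKM, exceeded Fgf23 in all 3 libraries. The endocrine relative Fgf21 stayed at or under 1.01 FPKM in every library.

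Galnt3, the glycosyltransferase that protects FGF23, fell with time in wild type and stayed near its 90 min level in the GdX-deficient library. Wild type had 2.32 and 2.84 FPKM early and 0.52 and 0.43 FPKM late. GdX-deficient spleen had 2.99 and 2.64 FPKM early and 2.56 FPKM late. The wild-type libraries at 6 h were the only ones under 1 FPKM. The wild-type means, 2.58 ± 0.368 and 0.475 ± 0.0636 FPKM (SD, n = 2 each), differed 5.43-fold, by -1.28 on the log2 scale (SE 0.25). At 6 h the GdX-deficient library was 5.39-fold above the wild-type mean, and at 90 min the genotypes overlapped.

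The level of Fgf23 relative to Galnt3, both per length, was 6.27 and 7.38 in wild type and 3.51 and 1.496 in GdX-deficient spleen at 90 min. At 6 h it was 0.981 and 1.05 in wild type and 0.0586 in the GdX-deficient library. Both falls in wild type left the ratio near 1, whereas in the GdX-deficient library Fgf23 alone was low.

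Fam20c, the secretory pathway kinase, differed with time in opposite directions in the 2 genotypes. At the settings used throughout for all genes, neither difference passed the rule for a call. Early values were 4.25 and 5.85 FPKM in wild type and 3.30 and 1.58 FPKM in GdX-deficient spleen. Late values were 1.38 and 1.98 FPKM in wild type and 4.61 FPKM in GdX-deficient spleen. The GdX-deficient libraries were thus below wild type at 90 min (log2 difference -0.85, SE 0.33) and above it at 6 h (1.08). The 90 min difference was -0.48 without GdX-deficient replicate 2 and -1.22 without replicate 1. The difference between the times in the genotype effect was not tested. Calls for Fam20c with time depended on the setting. The wild-type difference, -1.17 (SE 0.33), was called by limma without GdX-deficient replicate 1 or replicate 2 at 90 min, where 9.54% and 9.57% of all genes were called, and without wild-type replicate 2 at 6 h (-1.33), where 15.6% were. It was also called with the replicate block (20.6% of all genes) and with the length trend removed (22.1%). The GdX-deficient difference, 0.75, was counted without replicate 1 at 90 min (1.121), where 3.94% of all genes were counted as higher. Without replicate 2 at 90 min it was 0.384 and not counted, near the median of all genes at that setting, 0.355. The summed level of 6 stromal markers was 101.1 and 58.06 FPKM in wild type and 26.1 and 22.96 FPKM in GdX-deficient spleen early, and 26.66 and 34.81 FPKM and 50.06 FPKM late. It was thus lower in GdX-deficient spleen at 90 min and higher at 6 h, as Fam20c was. The macrophage marker sum turned likewise, from 606 and 632.4 FPKM in wild type against 528.5 and 458.7 FPKM early to 448.9 and 368.8 against 634.8 FPKM late. The part of these marker shifts in the Fam20c values was not tested.

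Furin, the convertase, was the most abundant of the 4 in each library at 6 h and overlapped in all 4 comparisons. Early values were 13.33 and 25.23 FPKM in wild type and 24.19 and 15.01 FPKM in GdX-deficient spleen. Late values were 18.15 and 32.26 FPKM in wild type and 18.42 FPKM in GdX-deficient spleen. Furin ranked first of 8 listed convertases in 5 of the 7 libraries. The sign of each Furin difference turned when some single library was left out, for example to -0.06 for time in wild type without replicate 1 at 90 min and to 0.02 for genotype at 6 h without wild-type replicate 2. In both wild-type pairs replicate 2 was the higher, by 0.87 and 0.80 on the log2 scale, and genes of a similar transcript length (2743 genes) were also higher there, by a median of 0.22 and 0.48. The GdX-deficient pair at 90 min went the other way. Replicate 2 minus replicate 1 was -0.65 for Furin, against a median of 0.27 for those genes. With the length trend removed, the Furin difference for genotype at 6 h was -0.83, against -0.38 without that step. The part of transcript length in the spread between Furin replicates was not tested.

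**Figure D2:**
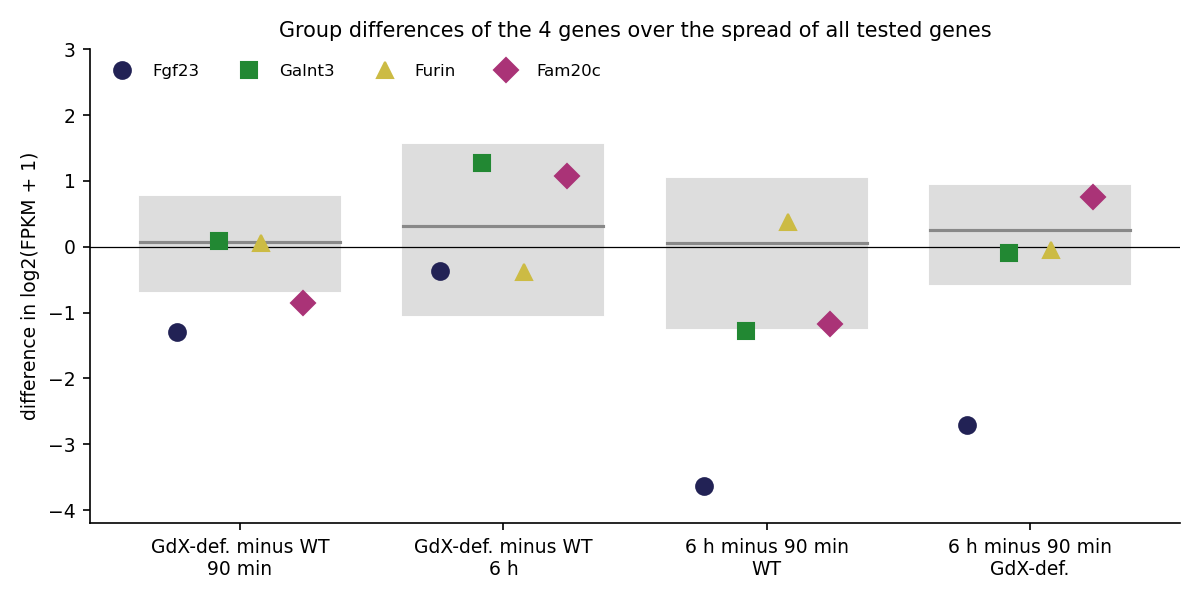
Difference in log2(FPKM + 1) between groups (vertical axis) for the 4 genes (symbols) in 4 comparisons. Grey boxes span the 5th to 95th percentile of the 11378 tested genes and the grey line is their median; Fgf23 lies below the box in 3 of the 4 comparisons.

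Calls across all genes, from limma with Benjamini-Hochberg adjustment at 0.05, are given only as background, since the members were chosen on these contrasts. Between 90 min and 6 h in wild type, 2 of the 4 members were called lower, Fgf23 and Galnt3, against 6.32% of all genes called lower and 4.39% called higher. The Galnt3 call was lost without either wild-type library at 90 min. With genotype as covariate 1 was called lower, Fgf23, against 2.65% of all genes called lower, 2.79% called higher and 5.44% in either direction. Galnt3 (-0.81) was called there too with the length trend removed (-0.90, 10.7% of all genes called) and without the GdX-deficient library at 6 h (-1.28, 10.6% called). No member was called between genotypes at 90 min, where limma called 0.0176% of genes, all of them higher, or with time as covariate, where it called 0.0439%, 0.0352% higher and 0.00879% lower. For the comparisons with 1 library on a side, a gene was counted when its difference reached 2-fold and its single value was beyond both values of the pair. At 6 h, 2 of the 4 members were counted as higher in the GdX-deficient library, Galnt3 and Fam20c, against 16.5% of all genes higher, 5.47% lower and 22% in either direction. Neither was counted after quantile normalization (0.67 and 0.46 on the log2 scale) or with the length trend removed (0.85 and 0.69). With quantile normalization the genes counted went from 1879 higher and 622 lower to 951 higher and 881 lower. The median difference of all genes at 6 h was 0.32 as deposited and -0.02 after quantile normalization. Without wild-type replicate 1 at 6 h Fam20c was not counted either (0.91). With time in GdX-deficient spleen 1 was counted as lower, Fgf23, against 1.64% of all genes lower, 4.09% higher and 5.73% in either direction.

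The other genes of the pathway came from lists of 91 genes, of which 78 were in the table and 43 passed the filter. Between 90 min and 6 h in wild type, limma called 10 of the 43, 8 lower and 2 higher, against 10.7% of all genes. Their median difference was -0.66 on the log2 scale, against 0.05 for all genes tested. Without the filter on low values, Fgf1, Lcn2 and Pcsk4 were the 3 of these 10 still called, so the calls below for Il6, Il1b, Epor, Egr1, Spry1, Ank and Galnt10 were lost, and Etv4, Fgfr2 and Fgfr4, which the filter removes, were called. Ank, Epor, Spry1 and Galnt10 were also not called when either wild-type library at 90 min was left out, nor Fgf1 without replicate 2. The Galnt10 call was further lost without either GdX-deficient library at 90 min and with only the 4 libraries compared. Without wild-type replicate 1 at 6 h neither Galnt10 nor Ank was called. None of the 43 was called between genotypes at 90 min, and 8 had an unadjusted p under 0.05, against 7.58% of all genes. With time as covariate none was called and 11 had an unadjusted p under 0.05, against 27% of all genes. That last count of 0 became 8 when GdX-deficient replicate 1 at 90 min was left out, where 14.7% of all genes were called. At 6 h, 8 of the 43 were counted as higher and 5 as lower in the GdX-deficient library, against 16.5% and 5.47% of all genes, with a median of 0.52 against 0.32. With time in GdX-deficient spleen 4 were counted as higher and 2 as lower, against 4.09% and 1.64% of all genes, with a median of 0.07 against 0.25.

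Receptors were sparse. Klotho (Kl), the co-receptor that gives FGF23 its kidney specificity, lay at or under 0.04 FPKM in every library. Fgfr1, the main receptor for FGF23 with klotho, lay at 0.83 to 1.77 FPKM. Fgfr2 and Fgfr4 stayed at or under 0.67 and 0.34 FPKM, and Fgfr3 had its highest value, 1.90 FPKM, in GdX-deficient spleen at 6 h, where wild type had 0.19 and 0.23 FPKM. Of 7 receptor and klotho genes, 2 passed the filter, Fgfr1 and Fgfrl1, and neither was called in any tested comparison. For time in wild type, where 10.7% of all genes were called, a fit without the filter called 2 of the 7 lower, Fgfr2 and Fgfr4.

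Of the other GALNT enzymes, 9 of 17 passed the filter. Galnt1, a widely expressed member, was the most abundant in every library at 23.32 to 38.49 FPKM, and Galnt3 ranked 8th to 10th of 17. In wild type 8 of the 9 had a negative difference with time on the log2(FPKM + 1) scale. One of these, Galnt11, was at -0.03 with overlapping libraries and a higher mean FPKM at 6 h (8.03 against 7.61). Of the 9, 1 was called, Galnt10, against 6.32% of all genes called lower (log2 difference -1.48, SE 0.37, limma adjusted p = 0.035). At 6 h all 9 were higher in the GdX-deficient library than the wild-type mean, with a median of 0.75 against 0.32 for all genes tested, and 4 were counted, Galnt10, Galnt6, Galnt12 and Galnt4, against 16.5% of all genes. After quantile normalization all 9 were still higher, with a median of 0.42 against -0.02 for all genes, and 2 were counted, against 8.36% of all genes. B cell, T cell and erythroid marker sums at 6 h were also higher in the GdX-deficient library than in both wild-type libraries, and their part in the GALNT values was not tested.

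**Figure D3:**
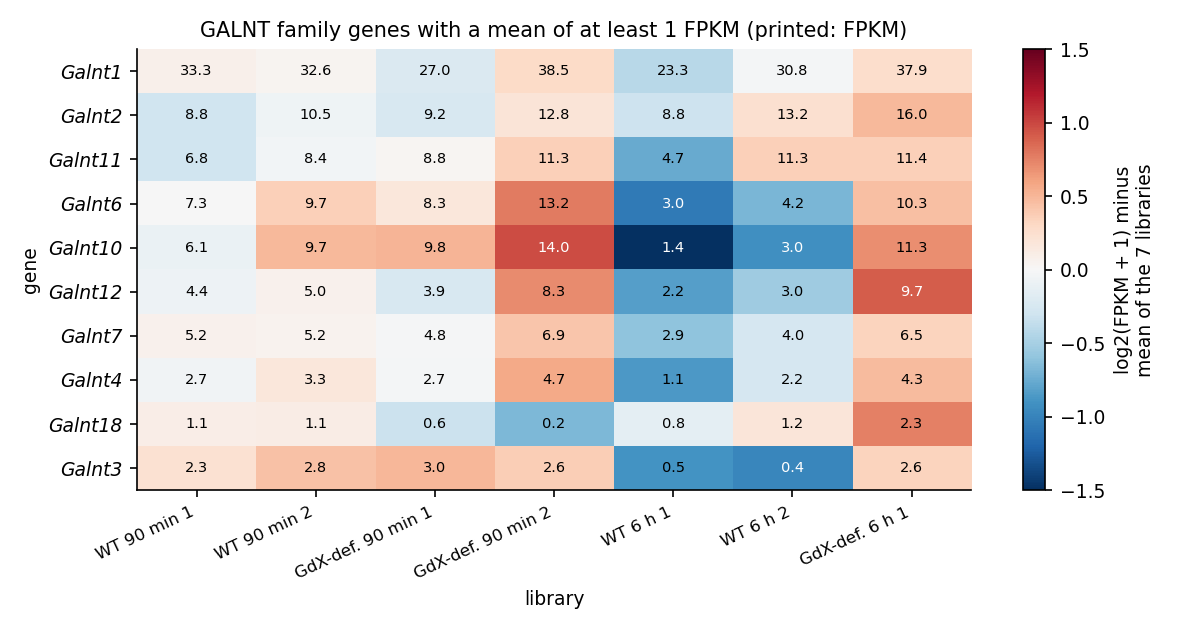
GALNT family genes (rows) with a mean of at least 1 FPKM in the 7 libraries (columns). Numbers are FPKM and colour is log2(FPKM + 1) minus the gene's mean over the libraries; Galnt3, Galnt4, Galnt6, Galnt7, Galnt10 and Galnt12 are lowest in the 2 wild-type libraries at 6 h.

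Among the convertases, 3 of 8 passed the filter. Pcsk4, known mainly from germ cells, rose in wild type from 0.715 to 4.13 FPKM (log2 difference 1.58, SE 0.25, limma adjusted p = 0.0072). Pcsk7 lay at 6.07 to 17.11 FPKM and was not called. Pcsk5 and Pcsk6 stayed at or under 0.56 and 0.28 FPKM. Of the FAM20 relatives, Fam20b, a xylose kinase, lay at 7.60 to 14.85 FPKM, above Fam20c in every library, and Fam20a stayed at or under 0.50 FPKM.

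The list of inflammatory, iron and oxygen inducers of Fgf23 had 14 of 16 genes tested, and in wild type 3 were called lower and 1 higher at 6 h, against 6.32% and 4.39% of all genes. Il6 stood at 152.5 against 32.9 FPKM (log2 difference -2.15, SE 0.49, limma adjusted p = 0.0254). In GdX-deficient spleen Il6 was lower than in wild type at both times. It stood at 46.57 FPKM at 90 min (-1.90 from wild type, limma adjusted p = 0.52) and at 1.35 FPKM in the single library at 6 h (-3.85). Il1b stood at 346.3 against 97.2 FPKM (-1.84, SE 0.37, limma adjusted p = 0.0175). Epor, the erythropoietin receptor, fell by 1.29 (SE 0.30, limma adjusted p = 0.0274). The erythroid marker sum was also lower at 6 h in wild type, and its part in the Epor values was not tested. Lcn2, which binds bacterial iron carriers, rose by 2.30 (SE 0.26, limma adjusted p = 0.00197). Tnf had a difference of -0.84 (limma adjusted p = 0.141). Of 8 tested feedback and immediate early genes of FGF receptor signalling, 7 had a negative difference with time in wild type, and 2 were called lower, against 6.32% of all genes, Egr1 and Spry1 (-2.12 and -1.24, limma adjusted p = 0.0195 and 0.0263).

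Of 5 bone regulators of Fgf23, 4 were in the table and 2 passed the filter. Phex and Dmp1, whose loss raises FGF23 in bone, stayed at or under 0.32 and 0.29 FPKM. Enpp1, an enzyme that makes pyrophosphate, lay at 1.33 to 3.46 FPKM and was not called. Ank, a pyrophosphate transporter, lay at 0.92 to 8.73 FPKM and was called lower at 6 h in wild type (-1.40, SE 0.32, limma adjusted p = 0.0262). Of 10 osteoblast and osteocyte markers 6 were in the table, and 3 of these were under 1 FPKM in every library, Sost at or under 0.08 FPKM. At 6 h the list summed to 20.33 and 45.92 FPKM in wild type and 14.35 FPKM in GdX-deficient spleen. At 90 min it summed to 8.43 and 11.72 FPKM in wild type and to 7.79 and 5.92 FPKM in GdX-deficient spleen. The list was thus higher at 6 h, unlike Fgf23, but lower in both GdX-deficient libraries at 90 min, as Fgf23 was. The 3 genes under 1 FPKM add little to the sum, and Dmp1 had means of 0.205 FPKM at 90 min and 0.07 FPKM at 6 h in wild type. The part of bone cells in the Fgf23 values was not tested. Cyp27b1, which makes active vitamin D, stayed at or under 0.44 FPKM, and of 3 tested vitamin D and phosphate genes none was called with time in wild type, against 10.7% of all genes. Vdr, the vitamin D receptor, was counted as lower at 6 h in GdX-deficient spleen (1.34 FPKM, wild-type mean 4.505 FPKM), where 5.47% of all genes were.

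Cell type markers moved with the groups. The summed level of 8 erythroid markers was 214.7 to 288.1 FPKM in wild type at 6 h, 585.1 to 661.8 in wild type at 90 min, 1077 to 1280 in GdX-deficient spleen at 90 min and 645.5 at 6 h. The sum of 6 B cell markers was 468 and 469 FPKM in wild type at 6 h and 1155 to 2010 FPKM in the other libraries, the same split as Galnt3. Erythroid markers split the libraries in this way too, as did 6 T cell markers (153.7 and 130.6 against 259.3 to 356.9 FPKM) and the low sum of 7 pancreas markers (3.42 and 2.64 against 5.33 to 8.71 FPKM). The sums of 8 macrophage markers (448.9 and 368.8 against 458.7 to 634.8 FPKM) and 6 endothelial markers (28.38 and 48.82 against 49.54 to 75.1 FPKM) gave this split as well, more narrowly. Dendritic cell, neutrophil, stromal, fat, and osteoblast and osteocyte sums did not. The part of these shifts in the 4 genes and in the pathway genes was not tested, and in whole spleen fewer cells of a type and less RNA per cell cannot be told apart.

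Of 10902 genes searched, those whose profile over the 7 libraries was most like that of Fgf23 were Tnfsf9, Rcan1, Fosl2, Prr7, Igsf9, Tfpi2, Ehf and Map2k3, with Pearson's r from 0.981 to 0.99 on log2(FPKM + 1). The libraries share groups and scaling, so r is a description. Tnfsf9, the ligand of the T cell co-stimulator 4-1BB, stood at 57.28 and 66.34 FPKM in wild type and 53.22 and 11.6 FPKM in GdX-deficient spleen at 90 min, and at 4.11, 4.04 and 2.78 FPKM at 6 h. It ordered the libraries exactly as Fgf23 did. For Galnt3 the most similar were Pparg, Skap1, Fah, Paqr9 and H2-Eb1, and for Fam20c Hspg2, Prelp, Yap1, Bcam and Lamb2. For Furin they were Cdt1, Pnpla2, Ksr1, Rnf157 and Ncoa5.

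**Figure D4:**
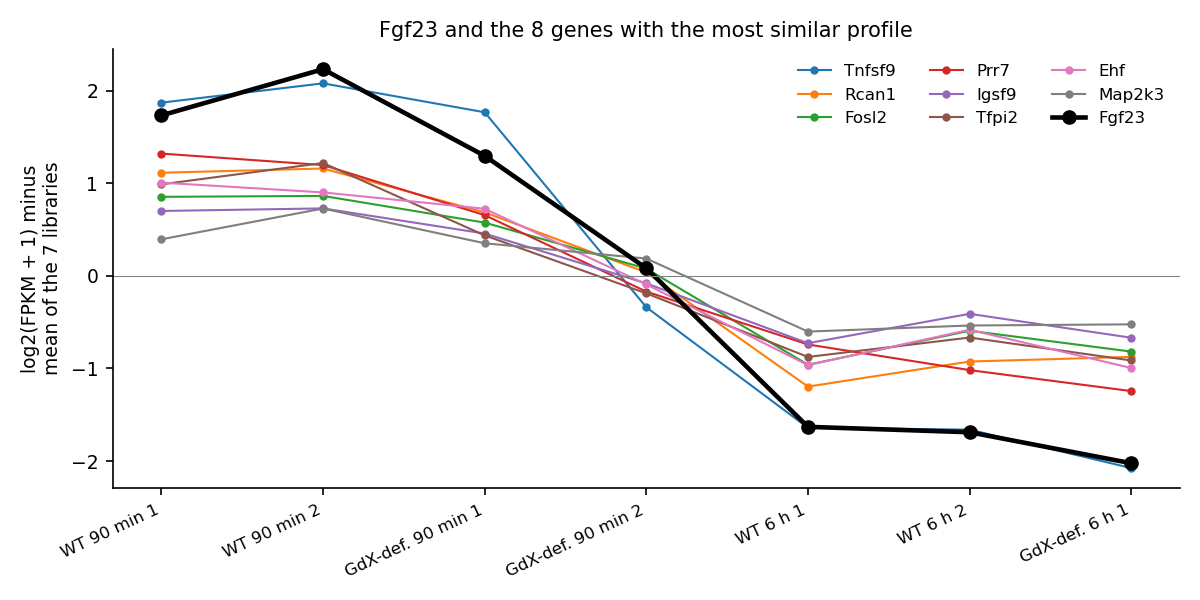
Profile of Fgf23 (black) and of the 8 most similar genes over the 7 libraries, as log2(FPKM + 1) minus each gene's mean. All 9 are above their mean in the wild-type libraries at 90 min and below it at 6 h.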

How the data were processed

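RNA from spleens of 4 wild-type and 3 GdX-deficient mice was sequenced on a BGISEQ-500 instrument after poly(A) selection or rRNA depletion (the protocol names both), per the labels' protocols. The authors deposited FPKM values, 1 column per library, per the file headers. RSEM, Bowtie2 and HISAT2 2.0.4 and the build GRCm38.p5 are named in the submitters' processing notes, without their roles. The table held FPKM alone, so the plan's branch for counts was not used.

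Values were converted to log2(FPKM + 1). The 11378 genes with a mean of at least 1 FPKM were fitted with limma 3.58.1 in R 4.3.3 (empirical Bayes with a trend), with two-sided p-values adjusted by the Benjamini-Hochberg method over all of them. The 4 groups shared 1 fit. Genotype with time as covariate and time with genotype as covariate were additive fits. With 1 library, GdX-deficient spleen at 6 h entered no test of its own and its comparisons are described. Depth and fragments per gene were estimated from the steps of low FPKM values and transcript lengths in GENCODE M21. Tests were checked on simulated data. Promoters came from RefSeq (GRCm38.p6), and all 4 genes matched.

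The members and lists were chosen with earlier results of these data known. Genes named were the 4 members, a set listed by name (such as the receptors), up to 4 called genes of each list with the smallest p, and the 8 (Fgf23) or 5 (other members) most similar genes by Pearson's r. Fgf21, Fgfrl1, Etv4, Vdr, Enpp1, Sost, Galnt11, Galnt1, Galnt4, Galnt6, Galnt12, Galnt7, the targeted gene's entries and some pathway genes of the closing section fall outside this rule. Alternatives were another pseudocount, other filters, quantile normalization, a replicate block, only the libraries compared, leaving out each library and, added after the data were seen, removal of a transcript length trend.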

Additional observations from a re-analysis of the deposited data

Results flagged for a closer look

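Groups of 1 or 2 libraries are too small to look for single deviating libraries. The 4 members and the 78 pathway genes in the table were searched, and the results here had every library of one stratum on one side and every library of the other on the opposite side, and none of these differences between strata was tested. Each rests on the single GdX-deficient library at 6 h. All values are differences in log2(FPKM + 1). The median of all genes tested was 0.32 for genotype at 6 h and 0.25 for time in GdX-deficient spleen, so a positive value near these is no larger than the shift of all genes.

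Fam20c differed between genotypes by -0.85 at 90 min and 1.08 at 6 h, and with time by -1.17 in wild type and 0.75 in GdX-deficient spleen. For the other genes that turned between genotypes, the value at 90 min is given first and that at 6 h second. At a mean of at least 1 FPKM, Egr1 differed by -1.13 and 0.11, Il1b by -0.95 and 0.56, Galnt18 by -0.60 and 0.73, Fgf1 by -0.58 and 0.69, Epas1 by -0.57 and 0.74 and Fgfr1 by -0.25 and 0.39. Lcn2 turned in the reverse order, by 0.43 and -0.76. At a mean under 1 FPKM, Fgf18 differed by -0.48 and 0.0763, Pcsk5 by -0.34 and 0.13, Fgfr2 by -0.32 and 0.22, Pth1r by -0.29 and 0.71, Pcsk6 by -0.21 and 0.11, Fgfr4 by -0.19 and 0.36, Galnt15 by -0.15 and 0.48 and Fgf2 by -0.084 and 0.10.

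With time, each value in wild type and then in GdX-deficient spleen, Etv5 differed by -0.78 and 0.47, Galnt12 by -0.67 and 0.67 and Fgfrl1 by -0.36 and 0.18. Under a mean of 1 FPKM, Fgfr3 differed by -0.61 and 0.84, Fgf18 by -0.48 and 0.0763, Fgfr4 by -0.36 and 0.19, Pcsk5 by -0.28 and 0.19, Pcsk6 by -0.25 and 0.0795 and Fam20a by -0.0711 and 0.33. Of the FGF receptors, Fgfr4 alone turned in both comparisons.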

How the results depend on the processing

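The Fgf23 differences kept their direction under every alternative run. With a pseudocount of 0.1 they were -4.92 for time in wild type, -4.84 for time with genotype as covariate, -4.71 for time in GdX-deficient spleen and -1.21 for genotype at 6 h, where Fgf23 then met the rule for a counted gene with 29.7% of all genes, the last also -0.70 after quantile normalization and -0.47 with the length trend removed. Leaving out 1 library moved Fgf23 between -1.90 and -0.69 for genotype at 90 min and between -3.89 and -3.39 for time in wild type. Signs turned for uncalled differences of Furin in all 6 comparisons, of Galnt3 for genotype at 90 min (-0.05 after quantile normalization, -0.06 with the length trend removed) and of Fam20c for genotype with time as covariate (up to 0.30 when GdX-deficient replicate 2 at 90 min was left out).

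Counts of pathway genes called moved more, and the share of all genes called moved with most of them (in brackets). For time in wild type 10 became 6 without a filter on low values (3 of them among the 10; 3.54% of all genes against 10.7%), 18 with the length trend removed (22.1%) and 5 to 16 when 1 library was left out (3.96% to 15.6%). For time with genotype as covariate 3 became 0 without a filter (0.58% against 5.44%), 8 after quantile normalization (7.76%), 12 with the length trend removed (10.7%) and 2 to 10 when 1 library was left out (1.35% to 10.6%). For genotype at 90 min 0 became 1 with only the 4 libraries compared (1.59%) and 0 to 1 when 1 library was left out, and the gene was Il6 each time. For genotype with time as covariate leaving out 1 library gave 0 to 8, and for genotype at 6 h 13 became 8 with a mean of at least 5 FPKM (22.2% against 22%). Galnt3 and Fam20c fall under that filter. Over all genes, leaving out 1 library gave 2 to 183 calls for genotype at 90 min (2 with all), 450 to 1774 for time in wild type (1218) and 2 to 1674 for genotype with time as covariate (5, and 1674 without GdX-deficient replicate 1 at 90 min). Quantile normalization turned the split of the genes counted with time in GdX-deficient spleen from 465 higher and 187 lower to 262 and 325, and of those called for time with genotype as covariate from 51.4% higher to 34.5% higher. With the replicate number as a block, 18 pathway genes, and 2345 genes in all (20.6%), were called for time in wild type, Fam20c among them. The block fit was not made for the comparisons with 1 library on a side. The edgeR and DESeq2 alternatives were not run, since the values are FPKM. The replicate differences of the groups correlated across genes with r of 0.768 between the 2 wild-type groups, the comparison whose calls the block raised from 1218, but with -0.12 and 0.08 between the GdX-deficient group at 90 min and the wild-type groups at 90 min and 6 h. No label ties the numbers to a shared batch, so they were not taken to pair the libraries. Depth limits Fgf23 at 6 h, which rests on 5 to 19 estimated fragments per library.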
